A study of Mus musculus with 12 samples.

Results

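A set of 10 early-response regulators was followed across the hearts of 12 mice, namely *Ier2*, *Ier3*, *Ier5*, *Btg2*, *Zfp36*, *Dusp1*, *Sik1*, *Klf4*, *Myc* and *Apold1*, of 27195 genes named on the array. Members were found by their symbol in the scanner files, which gave 13 probes of 56605. Of these 12 probes, and all 10 genes by at least 1 probe, passed the filter on dim signals that left 30859 probes for the whole array. The 10 genes were picked with their values on these same arrays known, so their levels and differences are a description. Counts of the 10 past the limma threshold support nothing. In the main fit they are printed beside the share of all probes, which is not given for other settings. Each gene is represented by its brightest probe, and other probes are given where they exist.

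All mice were male C57BL6/J animals aged 5 months, with 3 mice in each of 4 groups and 1 array for each mouse. Control mice (C) received neither agent and, like the diabetic mice without pargyline, were given vehicle. Control mice with pargyline (C + P) received this inhibitor of monoamine oxidase by intraperitoneal injection at 50 mg/kg per day for 12 weeks. Diabetic mice (D) had received streptozotocin, which destroys the insulin-producing β-cells, at 50 mg/kg per day on 5 days, and diabetic mice with pargyline (D + P) received both agents. Mice given streptozotocin were counted as diabetic from a blood glucose of 17 mM, and the model is therefore one of insulin loss through a toxin. Total RNA of heart muscle was labeled with Cy3 and hybridized to 1-color Agilent arrays.

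Expression is given as log2 of the scanner intensity after quantile normalization between arrays, so that 1 unit is a doubling. C and D arrays shared 1 slide and scan, and C + P and D + P arrays shared another, so pargyline and slide cannot be told apart in C + P against C or in D + P against D. Each slide held its non-diabetic mice in row 1 and its diabetic mice in row 2, so that row and diabetes cannot be told apart either. Repeated spots of a probe had a median coefficient of variation of 3.89% on the cleanest array (C replicate 3) and 23.2% on the noisiest (D replicate 1), with 16.0% on C + P replicate 1 and 15.1% on D + P replicate 1. Between 23556 and 29231 of 59305 spots per array were well above background. All 6 cardiomyocyte markers and all 6 endothelial markers were well above background on every array.

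Immediate early genes are transcribed within minutes of a stimulus from transcription factors that already wait in the cell, without new protein synthesis. Their best known products are the AP-1, Egr and Nr4a transcription factors. Some of the genes followed here act as brakes on this wave, *Btg2* and *Zfp36* by shortening messenger RNA, *Dusp1* by removing phosphate from MAP kinases and *Sik1* by holding back coactivators. The others are transcription factors or proteins with further roles, given with each gene. Their transcripts are short-lived, and in the heart they respond to adrenergic stimulation, stretch and injury. Inducible promoters of this class often carry the cyclic AMP response element, which binds CREB, or the CArG box, which binds serum response factor.

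Promoter windows were present in the RefSeq table (GRCm38.p6) for 7 of the 10 genes. A window runs from 250 bases before the transcription start to 50 bases after it, and the 250 bases before the start are shown for 5 genes, 4 that were highest in C + P and *Ier3*, which was not. Capitals mark letters that match a motif searched on both strands, which are the cyclic AMP response element TGACGTCA, its shorter form TGACG, the EGR site GCGNGGGCG and the CArG box, and the TATA element TATAAA on the sense strand. The sequences run 5′ to 3′ on the strand of the gene. *Btg2* is chr1:134079156-134079405 on the minus strand, *Dusp1* chr17:26508473-26508722 minus, *Zfp36* chr7:28379229-28379478 minus, *Apold1* chr6:134981751-134982000 plus and *Ier3* chr17:35821463-35821712 plus.
*Btg2*: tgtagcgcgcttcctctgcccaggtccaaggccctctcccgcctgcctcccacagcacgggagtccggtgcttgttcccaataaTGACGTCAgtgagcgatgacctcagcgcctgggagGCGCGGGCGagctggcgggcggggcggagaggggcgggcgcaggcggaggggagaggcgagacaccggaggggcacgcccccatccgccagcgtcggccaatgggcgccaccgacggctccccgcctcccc
*Dusp1*: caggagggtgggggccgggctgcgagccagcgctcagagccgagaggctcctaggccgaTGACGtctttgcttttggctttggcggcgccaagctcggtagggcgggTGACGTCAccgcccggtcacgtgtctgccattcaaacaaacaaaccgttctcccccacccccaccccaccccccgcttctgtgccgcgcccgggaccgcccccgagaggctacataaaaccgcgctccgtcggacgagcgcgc
*Zfp36*: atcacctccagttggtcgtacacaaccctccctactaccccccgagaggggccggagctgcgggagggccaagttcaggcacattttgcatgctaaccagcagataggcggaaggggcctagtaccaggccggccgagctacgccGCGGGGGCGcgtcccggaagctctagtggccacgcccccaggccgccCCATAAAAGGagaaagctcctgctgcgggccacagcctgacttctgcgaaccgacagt
*Apold1*: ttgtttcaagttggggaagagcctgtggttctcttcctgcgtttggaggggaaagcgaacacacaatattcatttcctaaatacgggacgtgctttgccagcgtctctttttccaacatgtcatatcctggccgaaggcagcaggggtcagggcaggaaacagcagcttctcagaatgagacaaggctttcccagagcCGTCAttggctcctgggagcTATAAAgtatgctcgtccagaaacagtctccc
*Ier3*: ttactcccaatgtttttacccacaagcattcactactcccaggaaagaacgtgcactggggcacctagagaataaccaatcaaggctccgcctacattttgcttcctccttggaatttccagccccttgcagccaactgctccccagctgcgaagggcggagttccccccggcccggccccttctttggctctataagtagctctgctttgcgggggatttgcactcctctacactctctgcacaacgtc

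The full cyclic AMP response element stood in the windows of *Btg2*, at positions -166 to -159, and *Dusp1*, at -143 to -136, where position -1 is the last base before the start. It occurs in 1.79% of all 32817 windows. The shorter TGACG, which lies inside the full element, was found in 4 of the 7 windows, those of *Apold1*, *Btg2*, *Dusp1* and *Klf4*, against 20.8% of all windows. A CArG box lay at -58 to -49 in *Zfp36* alone, against 1.63% of windows. The EGR site was matched in *Btg2*, *Klf4* and *Zfp36*, against 5.56% of windows, and TATAAA in *Apold1* at -32 to -27, against 8.32%. The AP-1 site TGANTCA, present in 7.81% of windows, was in 0 of the 7. *Ier3* and *Ier5* held none of these letters in the window, which says nothing about the factors that act on them. A match is a string of letters and was not tested as a binding site.

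**Figure D1:**
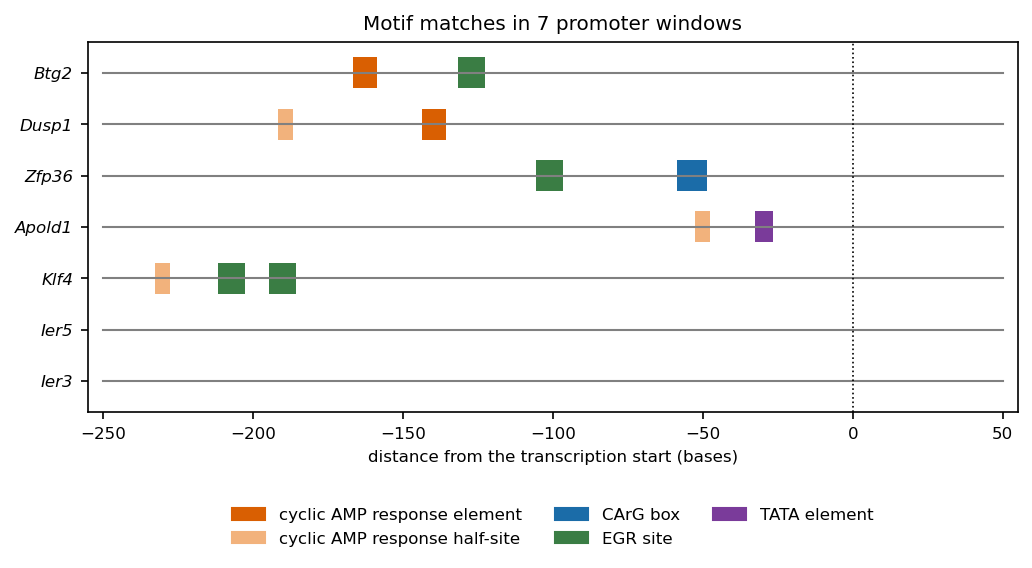
Motif matches in the 7 promoter windows, by distance from the transcription start in bases (horizontal axis), 1 line per gene. Colored blocks are matches on either strand (TATAAA on the sense strand), and *Btg2* and *Dusp1* carry the full cyclic AMP response element.

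Most of these genes had their highest levels in C + P, whose arrays lay on another slide than those of C and D. In 7 of the 10 genes, *Ier2*, *Btg2*, *Zfp36*, *Dusp1*, *Sik1*, *Klf4* and *Apold1*, every C + P array lay above all 9 other arrays, a pattern found in 1.21% of all tested probes with a value on every array. The gap between the lowest C + P array and the highest other array was widest in *Ier2* (1.64 log2 units) and smallest in *Dusp1* (0.25). *Ier3*, *Ier5* and *Myc* did not show it. Because the genes were chosen with these arrays in view, the count describes the choice, and in whole tissue a change in the number of cells of a type and a change in RNA per cell cannot be told apart.

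**Figure D2:**
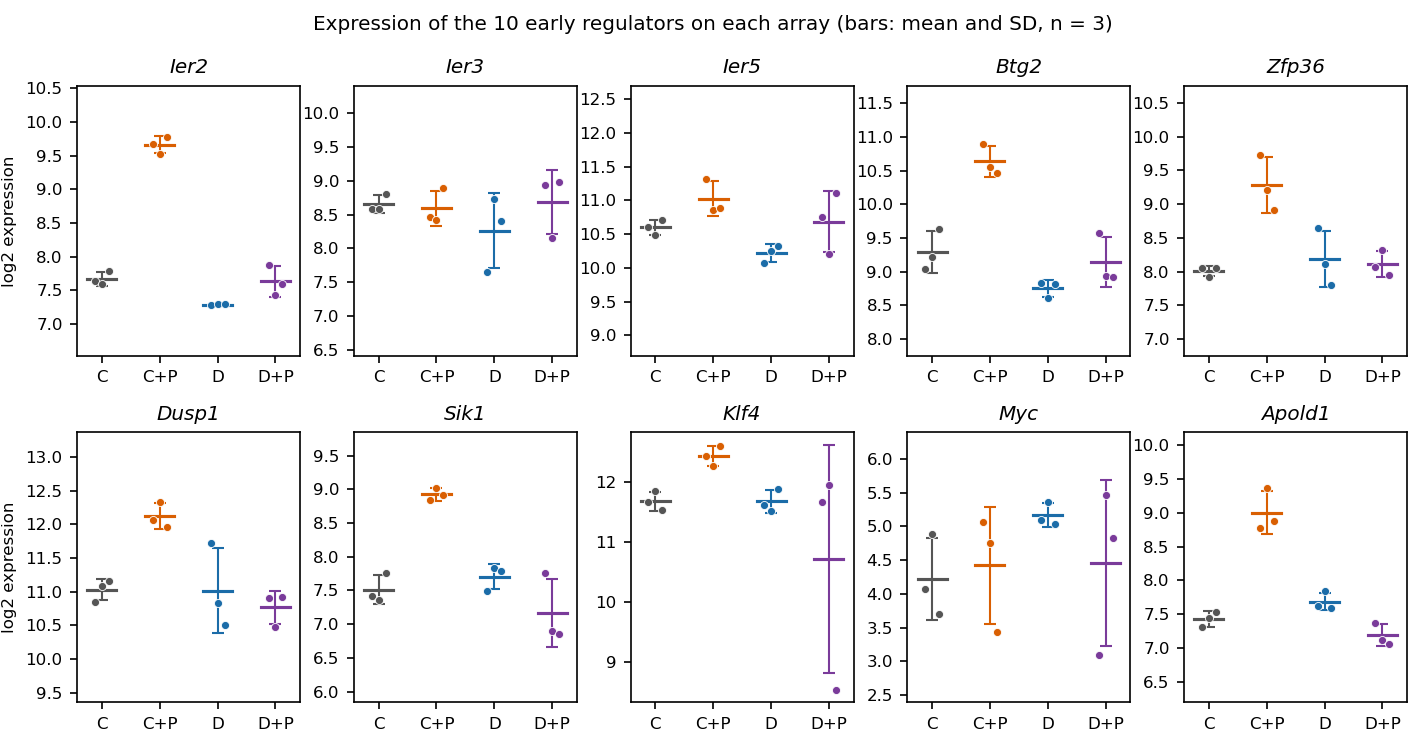
Log2 expression (vertical axis, each panel its own range) of the 10 genes by group (horizontal axis). Points are the 3 arrays of a group in replicate order, lines and bars the mean and SD, and the C + P points stand above all others in 7 panels.

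The IER genes encode small nuclear or cytoplasmic proteins named only for their rapid induction. *Ier2* (probe at mm9 chr8:87185211-87185245, minus strand) read 7.64, 7.59 and 7.79 in C, 9.67, 9.53 and 9.77 in C + P, 7.28, 7.30 and 7.29 in D, and 7.88, 7.43 and 7.60 in D + P. The C + P arrays stood far above the rest, the 3 D arrays were the lowest and nearly equal, and C and D + P overlapped. *Ier2* was 1.98 ± 0.15 (limma estimate ± SE) higher in C + P than in C, or 3.96-fold, and D + P lay below C + P (-2.02 ± 0.15). It had the smallest spread within groups of the 10 genes, with a pooled SD of 0.14. A second *Ier2* probe (chr8:87183623-87183681), designed on another transcript accession, was well above background on 0 arrays and gives no level.

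*Ier5* (chr1:156944778-156944837, minus), which regulates the heat shock factor HSF1 through a phosphatase, also had its highest mean in C + P, but with overlap. Its values were 10.61, 10.49 and 10.72 in C, 11.32, 10.86 and 10.89 in C + P, 10.07, 10.26 and 10.32 in D, and 10.75, 10.20 and 11.10 in D + P. C + P lay above C by 0.42 ± 0.23 without overlap, but D + P spanned almost the whole range. *Ier3*, an inhibitor of cell death downstream of ERK and NF-κB (chr17:35959528-35959587, plus), read 8.59, 8.58 and 8.81 in C, 8.47, 8.42 and 8.89 in C + P, 7.66, 8.74 and 8.40 in D, and 8.93, 8.15 and 8.98 in D + P. D replicate 1, the noisiest array, was the lowest, and D against C was -0.39 with it and -0.09 without it. All 4 groups of *Ier3* overlapped, and the difference between C + P and C was -0.06 ± 0.30.

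*Btg2* and *Zfp36* act on messenger RNA. *Btg2* recruits the CCR4-NOT deadenylase and slows proliferation, and *Zfp36* encodes tristetraprolin, which binds AU-rich elements and directs transcripts to decay. The brightest *Btg2* probe (chr1:135973828-135973887, minus) gave 9.03, 9.21 and 9.63 in C, 10.90, 10.55 and 10.47 in C + P, 8.83, 8.61 and 8.82 in D, and 9.57, 8.94 and 8.92 in D + P. C + P was above C by 1.35 ± 0.23 (2.54-fold), and all D arrays lay below all C arrays (-0.54 ± 0.23). The second *Btg2* probe (chr1:135972094-135972153) read 8.27, 7.99 and 8.18 in C, 9.63, 9.40 and 9.30 in C + P, 7.39, 7.88 and 7.82 in D, and 7.61, 8.11 and 6.22 in D + P. Both *Btg2* probes therefore placed C + P on top and D below C, and they differed on D + P replicate 3, which was the lowest array of the second probe only. They also differed on D + P replicate 1, which lay within the C range by the brightest probe and below all C arrays by the second.

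*Zfp36* (chr7:29161963-29162022, minus) read 8.05, 7.92 and 8.05 in C, 9.73, 9.21 and 8.91 in C + P, 8.64, 8.11 and 7.81 in D, and 8.06, 8.32 and 7.95 in D + P. The 3 C + P arrays were spread over 0.82 units yet stayed above every other array. C + P exceeded C by 1.28 ± 0.25 (2.43-fold), and the other 3 groups overlapped one another.

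*Dusp1* and *Sik1* act on kinase signaling. *Dusp1* encodes a nuclear phosphatase that switches off p38, JNK and ERK, and *Sik1* a kinase, induced by cyclic AMP, that keeps CRTC coactivators out of the nucleus. *Dusp1* (chr17:26642624-26642683, minus) gave 10.85, 11.09 and 11.15 in C, 12.06, 12.33 and 11.96 in C + P, 11.72, 10.83 and 10.50 in D, and 10.91, 10.48 and 10.92 in D + P. D replicate 1, the array with the noisiest repeated spots, came close to the C + P arrays, whereas D replicates 2 and 3 lay below the lowest C array, the former by little. *Dusp1* was 1.09 ± 0.28 higher in C + P than in C (2.13-fold), and its difference between D and C moved from -0.02 to -0.37 without D replicate 1 and to 0.24 without D replicate 3.

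*Sik1* (chr17:31981255-31981314, minus) read 7.42, 7.36 and 7.75 in C, 8.84, 9.03 and 8.91 in C + P, 7.49, 7.83 and 7.79 in D, and 7.76, 6.89 and 6.85 in D + P. The C + P arrays lay close together and 1.01 above the highest other array, and D + P replicates 2 and 3 were the lowest. C + P was 1.41 ± 0.24 above C (2.67-fold) and D + P lay below C + P (-1.76 ± 0.24).

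*Apold1* encodes a protein of vascular endothelium that is induced by hypoxia and stretch. Its probe (chr6:134936562-134936621, plus) gave 7.31, 7.44 and 7.53 in C, 8.78, 9.36 and 8.88 in C + P, 7.63, 7.84 and 7.60 in D, and 7.37, 7.12 and 7.06 in D + P. *Apold1* was the only one of the 10 genes in which the arrays of D lay above all of C and the arrays of D + P below all of D. C + P exceeded C by 1.58 ± 0.18 (2.99-fold), D exceeded C by 0.26 ± 0.18, and D + P lay below C + P (-1.82 ± 0.18) and below D (-0.50 ± 0.18). The summed level of the 6 endothelial markers overlapped between C, from 13.49 to 13.75, and C + P, from 13.42 to 13.86, and was 13.38 to 13.62 in D and 13.70 to 14.06 in D + P.

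*Klf4* and *Myc* encode transcription factors, *Klf4* one that keeps endothelial and smooth muscle cells quiescent and *Myc* one that drives growth and ribosome production. *Klf4* (chr4:55540833-55540892, minus) gave 11.67, 11.84 and 11.53 in C, 12.43, 12.27 and 12.59 in C + P, 11.62, 11.52 and 11.89 in D, and 11.67, 11.96 and 8.53 in D + P. Its C + P arrays were above all others by at least 0.31, and C + P exceeded C by 0.75 ± 0.69 (1.68-fold). The value of 8.53 on D + P replicate 3 was far below every other array, came from a single spot and carried no outlier flag. It sets the difference between D + P and C + P, which was -1.71 ± 0.69 with that array and -0.62 without it. D + P against D was -0.96 with it and 0.14 without it.

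*Myc* was near the limit of detection. Its brighter probe (chr15:61821417-61821476, plus) was well above background on 3 of 12 arrays, 1 each in C, D and D + P and 0 in C + P, so its C + P level is only a bound. Measured values were 4.07, 4.89 and 3.70 in C, 5.07, 4.76 and 3.44 in C + P, 5.10, 5.37 and 5.04 in D, and 3.09, 5.47 and 4.83 in D + P. The measured D values lay above the C values without overlap and the other pairs of groups overlapped, but since 1 array of 3 was well above background in C and in D no size is read from them. The difference between the measured values of D and C, 0.95 ± 0.59 and 0.25 with normexp background correction, is given only to show its dependence on processing. A second *Myc* probe (chr15:61820925-61820984) was well above background on 0 arrays, did not pass the filter and overlapped between D and C.

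The order of the group means differed below the top. C + P had the highest mean in 8 of the 10 genes. *Ier3* was not ordered because all its groups overlapped, nor *Myc* because its C + P level is only a bound. D was lowest in *Ier2*, *Ier5* and, by its brightest probe, *Btg2*, whereas the second *Btg2* probe had D + P lowest. With that probe the order rested on D + P replicate 3, which read 6.22. D + P was lowest in *Sik1* and *Apold1*. It was also lowest in *Dusp1* and *Klf4*, but there the order rested on 1 array: D + P against D was -0.25 in *Dusp1* and 0.10 without D replicate 1, and -0.96 in *Klf4* and 0.14 without D + P replicate 3. Next to one another in the order below C + P, the group ranges overlapped in *Zfp36*, *Dusp1*, *Sik1* and *Klf4*, whereas D + P and D in *Ier2* and *Btg2*, C and D in *Ier5*, and D and C in *Apold1* did not overlap. Relative to the C mean, the median of the 10 genes was 1.18, 1.23 and 0.92 on the 3 C + P arrays and between -0.33 and 0.11 on the other 9 arrays.

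**Figure D3:**
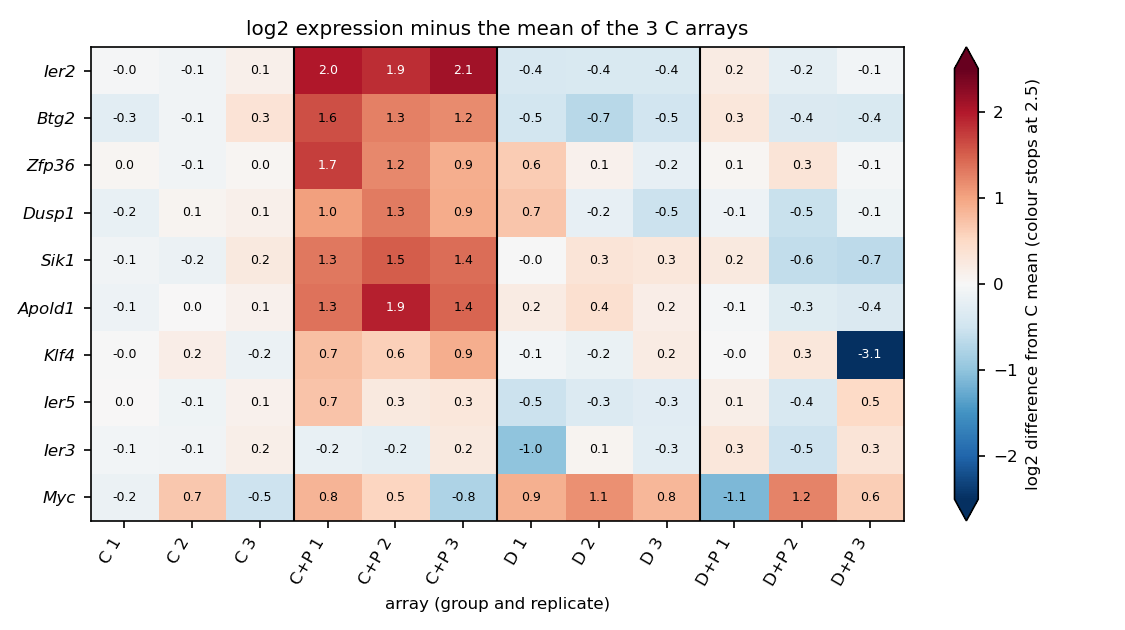
Log2 expression of each gene (rows) on each array (columns, by group and replicate) minus the mean of the 3 C arrays. Red is higher and blue lower, with the color scale ending at 2.5, and the C + P columns are red for the first 7 genes while *Klf4* on D + P replicate 3 is the darkest blue cell.

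In C + P against C the median difference of the 10 genes was 1.18, against -0.01 over all tested probes. All C + P arrays were above all C arrays in 8 of the 10, compared with 7.09% of all tested probes. *Ier2* and *Apold1*, 2 of the 10, passed a limma adjusted p of 0.05, as did 0.0324% of tested probes. *Apold1* no longer passed when C replicate 1, 2 or 3 or C + P replicate 2 or 3 was left out, which left 1 of the 10. In D + P against C + P the median was -1.43, against a value near 0 over all probes, and all D + P arrays were below all C + P arrays in 7 of the 10, compared with 6.85% of probes. Here *Ier2*, *Apold1* and *Sik1*, 3 of the 10, passed, as did 0.0454% of probes. *Sik1* passed in 8 of 22 alternative settings, and without D + P replicate 2 only *Ier2*, 1 of the 10, passed. Both comparisons share the C + P arrays, so the reversed sign is not a second observation.

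In D against C the 10 genes went both ways, from -0.54 in *Btg2* to 0.26 in *Apold1* when *Myc*, near background, is set aside, and the median of all 10 was -0.01. All D arrays were below all C arrays in 3 of the 10 (*Ier2*, *Ier5* and *Btg2*), compared with 10.5% of probes, and above them in 2 (*Apold1* and the near-background *Myc*), compared with 11.9%. In D + P against D the median was -0.16, and all D + P arrays were above all D arrays in 2 (*Ier2* and *Btg2*), compared with 7.38% of probes, and below them in 1 (*Apold1*), compared with 9.69%. For *Btg2* the direction turned with the probe, from 0.39 ± 0.23 with the brightest to -0.38 ± 0.39, with overlap, with the second. The negative sign of the second probe rested on D + P replicate 3, which read 6.22. With that probe D + P replicates 1 and 2 read 7.61 and 8.11, against a D mean of 7.69. The median of D + P against D was 0.11 without D replicate 1 and 0.07 without D + P replicate 3, so that its sign rested on single arrays. The difference of differences, D + P against C + P minus D against C, had a median of -1.35 over the 10 genes and ran from -2.08 in *Apold1* to 0.49 in *Ier3*. By limma 0 of the 10 passed in it, against 0.00648% of all probes, and 6 had an unadjusted p under 0.05, against 7.07%.

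**Figure D4:**
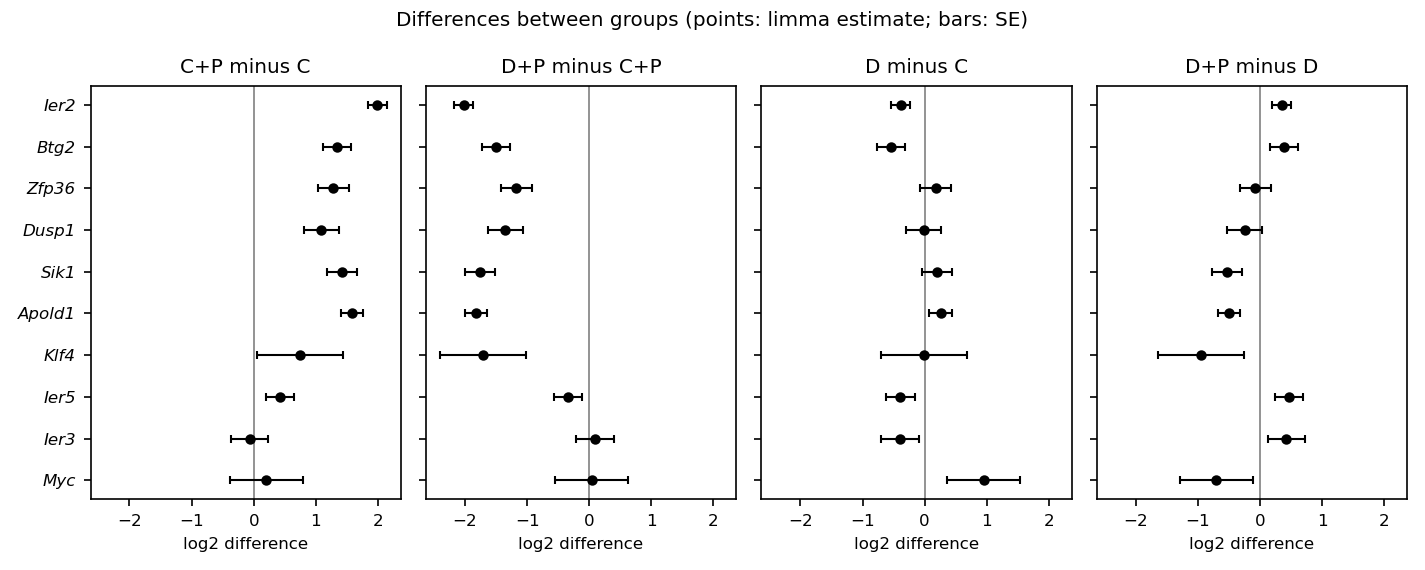
Differences between groups for the 10 genes (log2, horizontal axis) in 4 comparisons (panels). Points are limma estimates and bars their SE, and the first 6 genes lie well to the right of 0 in C + P against C and to the left in D + P against C + P. The SE is pooled over the groups. The wide bars of *Klf4* therefore come mainly from its value on D + P replicate 3, in all panels, and those of *Myc* from its spread.

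How far the genes moved together was read as the Pearson correlation of each with the mean of the other 9 over the 12 arrays, which share the same arrays and normalization. It was 0.94 for *Apold1*, 0.92 for *Ier2*, 0.92 for *Sik1*, 0.90 for *Btg2*, 0.88 for *Zfp36* and 0.83 for *Dusp1*. It was lower for *Ier5* (0.49) and *Klf4* (0.44), and -0.07 for *Ier3* and -0.25 for *Myc*. The value for *Klf4* includes D + P replicate 3, which lay at -3.15 from its C mean. Its C + P arrays lay at 0.75, 0.59 and 0.91, and its remaining arrays between -0.16 and 0.28. The correlation without that array was not computed. Outside the 10, the genes whose profile over the 12 arrays was most like their mean were *Egr1* (r = 0.98), *Egr2* (0.97), *Nr4a1* (0.96), *Itgb3* (0.94), *Cxcl1* (0.93) and *Fos* (0.92).

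Other genes of the early response were read from 4 lists of 127 genes, of which 116 were tested. The lists too were chosen with earlier results of these data known, so their calls and adjusted p-values are a description. Of the AP-1, Egr and Nr4a transcription factors, with 12 of 15 tested, 5 rose in C + P against C and 0 fell (limma, Benjamini-Hochberg adjusted p of 0.05), with a list median of 2.09. *Egr1* rose 14.1-fold, from a mean of 8.09 to 11.90 (adjusted p = 0.000805), and *Nr4a1* 14.1-fold, from 8.45 to 12.27 (adjusted p = 0.000805). *Fos* rose (adjusted p = 0.0114) from a measured mean of 4.78, with 1 of 3 C arrays well above background, to 9.20, and no fold is read from it. Also higher were *Fosb*, well above background on 2 C arrays, by 6.74-fold (adjusted p = 0.0416) and *Egr2*, not well above background in C, by at least 10.9-fold (adjusted p = 0.0416). All C + P arrays lay above all C arrays in 10 of the 12, compared with 7.09% of probes. *Fos* lost its call without C replicate 2 or any 1 C + P array (highest adjusted p 0.0856 over 22 alternatives), *Egr2* without any 1 array of C, C + P or D or D + P replicate 2 (highest 0.300), and *Fosb* without any 1 array of C, C + P or D or D + P replicate 3 (highest 0.539).

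The same 5 genes fell in D + P against C + P, again with C + P arrays shared by both comparisons. *Egr1* fell 16.7-fold (adjusted p = 0.000544) and *Nr4a1* 12.3-fold (adjusted p = 0.00128). *Fos*, *Egr2* and *Fosb* were not well above background in D + P, and fell at least 16.0-fold (adjusted p = 0.0198), at least 9.17-fold (adjusted p = 0.0244) and at least 6.04-fold (adjusted p = 0.0244). The call of *Fos* was lost without any 1 C + P array or D + P replicate 2 or 3 (highest adjusted p 0.134). Those of *Egr2* (highest 0.117) and *Fosb* (highest 0.310) were lost without any 1 C array, D replicate 1 or 2, or D + P replicate 2 or 3, and also without C + P replicate 1 or 3 for *Egr2* and C + P replicate 2 or 3 for *Fosb*. The C + P values of *Egr1* were 12.38, 11.57 and 11.76, and those of *Nr4a1* 12.73, 12.43 and 11.63, against 7.22 to 8.44 and 8.41 to 9.42 on the other 9 arrays.

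Among 44 tested genes of the list of other immediate early and delayed early genes, 0 were called by limma in C + P against C, with 14 at an unadjusted p under 0.05 (4.5% of all probes). In 16 of the 44 all C + P arrays lay above all C arrays (7.09% of probes), in 3 below (8.47%), and the list median was 0.29. *Thbs1*, which encodes the matrix protein thrombospondin 1, was the 1 gene called in D + P against C + P (adjusted p = 0.0244), with means of 7.95 in C + P and 4.76 in D + P, where 1 of 3 arrays was well above background. In that comparison 13 of the 44 lay lower (6.85% of probes) and 5 higher (7.04%) without overlap, 15 had an unadjusted p under 0.05 (7.5%), and the median was -0.32. *Thbs1* no longer passed when any C or C + P array, D replicate 1 or 2, or D + P replicate 3 was left out.

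Relatives of the 10 genes by family, such as other BTG, DUSP, ZFP36, SIK, KLF and MYC proteins, had medians near 0. Of 35 tested relatives 0 were called by limma in any comparison (unadjusted p under 0.05 in 3 for C + P against C, compared with 4.5% of all probes, and in 5 for D + P against C + P, compared with 7.5%), and their median differences were 0.04 and 0.04. Individual relatives ranged from -1.20 to 0.58 in C + P against C and from -1.24 to 1.10 in D + P against C + P. The 25 kinases, transcription factors, coactivators and deadenylase subunits upstream or downstream, all tested, had medians of -0.06 and -0.01, with 0 called in any comparison (unadjusted p under 0.05 in 1 and 2, compared with the same 4.5% and 7.5%).

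**Figure D5:**
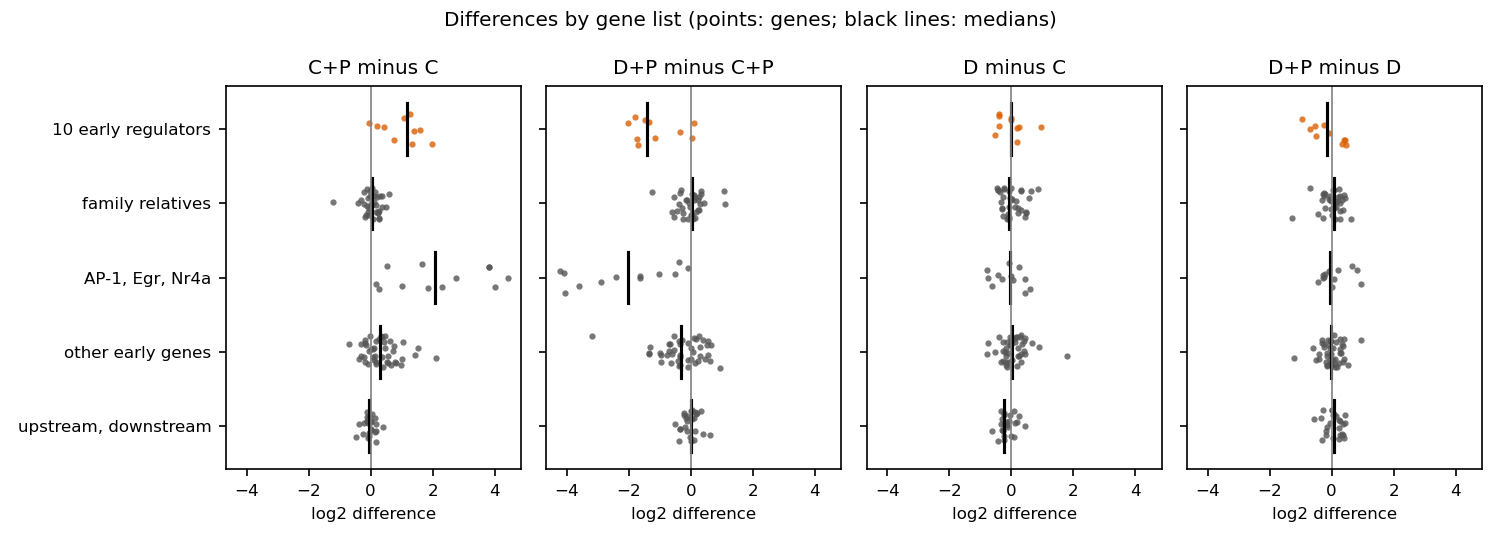
Log2 differences (horizontal axis) of the 10 genes and of the tested genes of 4 lists (rows) in 4 comparisons (panels). Each point is a gene and black lines are medians, which lie at 1.18 for the 10 genes and 2.09 for the AP-1, Egr and Nr4a factors in C + P against C.

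Over the 116 listed genes, 5 were called in C + P against C, which became 2 or 3 when any 1 array of C, C + P or D was left out. In D + P against C + P 6 were called, which became 2 or 3 without any 1 array of C or C + P, or without D replicate 1 or 2 or D + P replicate 2 or 3. *Egr1* and *Nr4a1* passed both comparisons in all 22 alternative limma settings, but not by the methods' t-test after Benjamini-Hochberg adjustment. In the test of the interaction 2 passed, *Egr1* and *Nr4a1*, as did 0.00648% of all probes. There 25 had an unadjusted p under 0.05, compared with 7.07% of probes, and the number called was 0 without any 1 array of C or of D + P, without C + P replicate 1 or 2, or without D replicate 1 or 2, and 1 without C + P replicate 3. In D against C 0 of the 116 were called by limma (9 at an unadjusted p under 0.05, compared with 10.9% of probes), as were 0.00648% of probes, and in D + P against D 0 were called (9 at an unadjusted p under 0.05, compared with 13.4%), as were 0.0% of probes. The methods' t-test, run on the 4 pairwise comparisons, called 0 listed genes in each after Benjamini-Hochberg adjustment.

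Markers of cell types were set beside the C + P pattern. Of 9 marker lists, 1 had a summed level above C on all C + P arrays, 2 below and 6 overlapping. The neutrophil list, with 2 of 3 genes tested, summed to 7.38 to 8.78 in C, 9.11 to 10.81 in C + P, 8.67 to 9.16 in D and 8.39 to 8.77 in D + P. *S100a9*, well above background on 12 arrays, ran from 7.00 to 8.50 in C and from 8.78 to 10.46 in C + P, and *S100a8*, well above background on 9 arrays, from 4.64 to 6.26 and from 6.82 to 8.62. The leukocyte list, with 6 of 7 tested, was lower in C + P (14.82 to 15.11) than in C (15.18 to 15.35), but gene by gene only *Itgam*, which carries most of the sum, and *Ptprc* were lower without overlap, and the other 4 overlapped. The fibroblast list, with 5 of 5 tested, was 15.19 to 15.30 in C + P and 15.30 to 15.49 in C. Its sum is mostly *Dcn*, whose ranges overlapped, and *Pdgfra* alone was lower without overlap. In D + P against C + P the neutrophil list was lower without overlap, and the fibroblast list was higher (15.34 to 15.63 in D + P). Higher as well was the Schwann cell list, with 2 of 3 tested, at 8.11 to 8.85 in D + P and 6.09 to 8.04 in C + P. The remaining lists overlapped. The part of these cells in the levels of the 10 genes was not tested.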

How the data were processed

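Messenger RNA of heart muscle was profiled in 12 mice, 1 array each, grouped by their labels. The authors labeled 200 ng of total RNA with Cy3, hybridized it to Agilent arrays and read the spots out with Feature Extraction, version 12.0.0.7 per the file headers. The deposited scanner files give spot intensity on a linear scale, background-subtracted and detrended within the array, with flags for signal well above background. A deposited table of the whole series, with intensity quantile normalized by the authors, was used as an alternative only.

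Scanner intensity was log2 transformed and quantile normalized. Control spots were left out, outlier-flagged spots (1640) were set to missing and repeated spots were averaged. A probe was tested if at least 50% of the arrays in each group gave it a positive and significant signal, as held for 30859 of 56605. Values not positive and significant, 2.03% of those tested, were kept. limma 3.58.1 in R 4.3.3 with data.table (version 1.17.8) was fitted with 1 mean per group over all 12 arrays, two-sided, with Benjamini-Hochberg adjustment over all tested probes at 0.05, and was tested on simulated data. Tables and figures were made with matplotlib 3.10.9, numpy 2.4.6 and pandas 2.3.3 under Python 3.11.15. Where no array of a group had a probe well above background, a change is given as at least N-fold, against the higher, per array, of its own value and the lowest signal well above background. Summed marker levels are log2 of the sum of linear values. p-values measure the spread between arrays of a group, in which variation of mouse and of array is joined. They do not cover differences between slides or rows. With 3 arrays a group, their number limits the precision.

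Replicate numbers did not pair the arrays: deviations of same-numbered arrays correlated from -0.20 to 0.20 over 18 pairs (median 0.03). Probe coordinates are those of the files (mm9), whereas promoter sequences, from RefSeq, are in GRCm38.p6, and the builds were not mixed.

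The members and lists were chosen with earlier results of these data known. All 10 members were named, with every probe, and of each list up to 6 genes past the threshold per comparison by size. The 6 genes outside the members with the highest correlation to their mean profile were named as well. *S100a8*, *S100a9*, *Itgam*, *Ptprc*, *Dcn* and *Pdgfra* were named after their values were seen. Alternatives covered scaling, background correction, missing values, the filter, array weights, the test, blocks, the probe of a gene, the source of values and each array left out. Leaving out the 3 noisiest arrays was chosen after seeing the data.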

Additional observations from a re-analysis of the deposited data

Results flagged for a closer look

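Differences between C + P and C that were not the same as between D + P and D were looked for. The genes below were chosen with earlier results of these data known, so their values are a description. For *Egr1* the interaction was -3.63 ± 0.38 on the log2 scale (limma adjusted p = 0.0259, from 0.00202 to 0.207 over 22 alternatives, passing in 8), and for *Nr4a1* it was -4.07 ± 0.42 (adjusted p = 0.0259, from 0.00121 to 0.154, passing in 9).

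*Apold1* was 1.58 higher in C + P than in C and lay at -0.50 in D + P against D, with every array of each group on its own side. *Apold1* lay at 0.26 in D against C, and the same difference on the other slide, D + P against C + P, was -1.82. The difference of these differences was -2.08 ± 0.26 and did not pass limma's adjusted p of 0.05. It is a description, since the gene was chosen with these arrays in view.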

How the results depend on the processing

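Of 1145 recomputed differences of the 10 genes, 1111 moved by less than the spread between replicates, 34 by more, and 0 with a reversal of a called value. Many of them could not move. Leaving out an array outside a comparison, changing the filter or adding the replicate block left the estimates as they were. The 1111 is therefore no measure of stability. The share of all probes was taken for the main fit only. Counts under the settings below have no share beside them and are not read as results about the genes. With limma array weights the calls were 2 listed genes in D against C, 5 members in D + P against C + P, 6 members and 17 listed genes in C + P against C, and 2 members in the interaction. With the slide column as a block, the median of the 10 genes in D against C was -0.19, and calls were 1 member and 3 listed genes in D + P against C + P, 1 member and 3 listed genes in C + P against C, and 0 listed genes in the interaction. With the replicate block, calls were 1 member in C + P against C and 0 listed genes in the interaction. With normexp background correction the median in C + P against C was 0.96, that in D + P against C + P was -1.20, and 4 listed genes passed the interaction. With the mean of all probes the median in D + P against C + P was -1.26, and 1 member passed in C + P against C and 1 in the interaction. Without the 3 noisiest arrays, 1 member and 3 listed genes passed in C + P against C, 0 listed genes passed the interaction, the median in D + P against D was 0.016 and that of the interaction -1.04. Without a filter 3 listed genes passed in C + P against C. In the interaction 0 of the 10 members passed as reported and with each array left out, 1 passed with non-significant values set to missing and 2 with a stricter filter. The methods' t-test called 0 members and 0 listed genes in C + P against C and likewise in D + P against C + P, after Benjamini-Hochberg and after Bonferroni adjustment.

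With each array left out, the median of the 10 genes ran from -0.07 to 0.08 in D against C, -1.57 to -1.24 in D + P against C + P, 1.09 to 1.29 in C + P against C, -0.38 to 0.11 in D + P against D and -1.57 to -1.06 in the interaction. Members called ran from 1 to 3 in C + P against C and 1 to 4 in D + P against C + P. Listed genes called ran from 2 to 5, 2 to 6 and, in the interaction, 0 to 2. The causes were not tested. Signal near background limits *Myc*, and the 3 arrays per group limit every difference.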
